A study of Homo sapiens with 40 samples.

Results

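The transcripts of 10 glutathione S-transferase genes were examined in HepaRG cells. This established human liver line, once differentiated, gives cultures that hold both hepatocytes and primitive biliary epithelial cells. The 10 genes were taken by name as GSTA1, GSTA2 and GSTA4 of the alpha class, GSTM2, GSTM3 and GSTM4 of the mu class, GSTP1 of the pi class, GSTK1 of the kappa class, GSTO1 of the omega class, and MGST1, a membrane-bound microsomal transferase. They were found among 56568 named genes of the RNA sequencing tables. Levels are given in FPKM, which are fragment numbers divided by transcript length and by the total of mapped fragments, summed over the transcripts that carry the name of the gene.

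The series held 40 libraries in 8 groups of 5. One group received solvent alone (control). PCB 126 was given at 3 concentrations, 100 pM, 10 nM or 1 µM, and the herbicide glyphosate likewise at 3, which were 10 µg/L, 1 mg/L or 0.1 g/L. The last group received Roundup, a formulated glyphosate herbicide, at 10 µg/L. Every group, the control included, was kept in a test medium with serum and DMSO from day 8 to day 14 of culture. A single cell line was used, and the labels did not say whether the 5 libraries of a group came from separate cultures, so that p-values measure the spread between these libraries.

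Glutathione S-transferases join the tripeptide glutathione to electrophilic compounds, which makes these more soluble and ready for export. Alpha-class enzymes are abundant in adult hepatocytes, where they also reduce lipid peroxides and bind bilirubin and steroids, whereas GSTP1 is known as the form of biliary and many extrahepatic epithelia. Among polychlorinated biphenyls, PCB 126 acts like dioxin through the aryl hydrocarbon receptor, a transcription factor that turns on CYP1A1 and other genes of xenobiotic metabolism. Several transferase genes are known targets of the antioxidant-responsive factor NRF2.

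GSTA1 and GSTA2 lie next to each other on chromosome 6 and encode near-identical enzymes. Their promoters are shown as a description. The levels of both genes moved together across the libraries, as described further on, and the part of the promoters in this was not tested. The stretches below are the parts of the RefSeq promoter windows (GRCh38.p14, minus strand, written 5′ to 3′) that lie upstream of the deposited transcript of each gene, and each has 156 bases. Both stretches end before the TATA box match (TATAAA) near the RefSeq start of each gene. The capitals mark the bases that differ between the genes.

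GSTA1, chr6:52803911-52804066: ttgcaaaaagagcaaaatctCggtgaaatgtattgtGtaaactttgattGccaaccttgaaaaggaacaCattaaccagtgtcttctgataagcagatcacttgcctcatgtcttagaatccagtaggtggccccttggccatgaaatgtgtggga
GSTA2, chr6:52763570-52763725: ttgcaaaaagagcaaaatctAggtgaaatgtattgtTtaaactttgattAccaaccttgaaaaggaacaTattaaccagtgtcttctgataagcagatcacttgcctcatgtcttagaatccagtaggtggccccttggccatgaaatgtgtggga

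Of the 156 bases, 152 were identical (97.4%). The 4 differences, counted from 1 at the 5′ end with the GSTA1 base first, were C21A, G37T, G50A and C70T. Over the whole windows of 300 bases the identity was 96.0%, in an alignment without gaps. Between GSTA1 and GSTA4 it was 52.2%, over 356 alignment columns of which 112 were gaps, so that the percentages are not over the same length. All 10 genes had a window in the RefSeq table, 12 windows in all because MGST1 had 3. GCGTG, the core that the aryl hydrocarbon receptor binds, was searched on both strands and found for GSTM3 and GSTM4, and in 36.5% of all 35116 windows. TGACNNNGC, the antioxidant response element bound by NRF2, was found for GSTA4, GSTO1, GSTP1 and MGST1 and in 13.3% of all windows. For MGST1 the match was in 1 of the 3 windows. The other windows, which hold the start of its most abundant transcript, had none. These matches describe letters in a short window and not bound sites.

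The depth of the libraries is unknown from FPKM and the number of libraries limited the precision of each group. In 8 libraries over 19% of the summed FPKM fell on assembled transcripts without a gene name (19.4% to 29.7%, against 11.2% to 18.2% in the other 32), and 2 of these 8 were in the 1 µM PCB 126 group, 2 in the 10 nM group and 1 in the control group. Replicate 1 at 1 µM stood apart most, with a median correlation of 0.833 with the other libraries, where the median over all libraries was 0.936. In the control group the hepatocyte marker ALB stood at 11210 ± 1483 FPKM (SD, 5 libraries) and the biliary marker KRT19 at 303 ± 85.6 FPKM. Some other biliary markers were low there, with KRT7 at 0.663 ± 0.259 and CFTR at 0.321 ± 0.155 FPKM. The epithelial progenitor marker EPCAM was listed at 0 in 4 of the 5 control libraries. Not all of the list was low. The 7 biliary and progenitor markers summed to a median of 373.5 FPKM in the control libraries, and 3 of them, including KRT19 and SPP1, varied enough to be tested. The check genes CYP1A1 and TIPARP of the aryl hydrocarbon receptor rose at 10 nM and 1 µM PCB 126. CYP1A1 averaged 2.33 ± 3.40 FPKM without PCB 126, 268 ± 114 FPKM at 10 nM and 235 ± 108 FPKM at 1 µM, and TIPARP averaged 4.58 ± 1.52, 30.7 ± 17.1 and 53.3 ± 21.9 FPKM, with adjusted p values of 0.000411 and 7.44e-05 for CYP1A1 and of 0.00841 and 4.8e-05 for TIPARP (limma). At 100 pM they were at 86.2 ± 133 and 8.62 ± 5.35 FPKM, overlapped the control libraries and were not called (adjusted p = 1 for both, limma).

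Of the 10 genes, 7 had a median of at least 3.13 FPKM and 3 were listed at or near 0. An exact 0 in such a table can be a failed estimate. For example, all 5 control libraries gave 0 for the structural RNA RN7SL1, which reached 55490 FPKM in the Roundup group. The median over the 40 libraries was 414 FPKM for GSTA1, 229 for MGST1, 94.5 for GSTA2, 70.1 for GSTK1, 61.8 for GSTO1, 16.5 for GSTM4 and 3.13 for GSTA4. In the control group, GSTA1 made up 49.6 ± 4.95% (SD, n = 5) of the summed FPKM of the 10 genes, MGST1 23.3 ± 4.02% and GSTA2 10.7 ± 1.73%. The order of the levels of the genes therefore began with 2 alpha-class genes and the microsomal enzyme, which sits in the endoplasmic reticulum membrane and also acts on lipid hydroperoxides.

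GSTP1, on chromosome 11 (67583595 to 67586660), was listed at 0 in 37 of the 40 libraries. The 3 others were replicates 1 and 2 at 1 µM PCB 126, with 0.0363 and 0.0641 FPKM, and replicate 5 of glyphosate at 1 mg/L, with 0.0222 FPKM. GSTM2 ranged from 0.124 to 0.796 FPKM, with its highest group mean at 1 mg/L of glyphosate (0.523 against 0.304 FPKM in the control group), and GSTM3 from 0 to 0.276 FPKM over the 40 libraries. These 3 genes did not pass the filter on the variance of FPKM above 1 and were not tested, which leaves 7 genes in each test. The filter used all libraries of a table and no group.

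**Figure D1:**
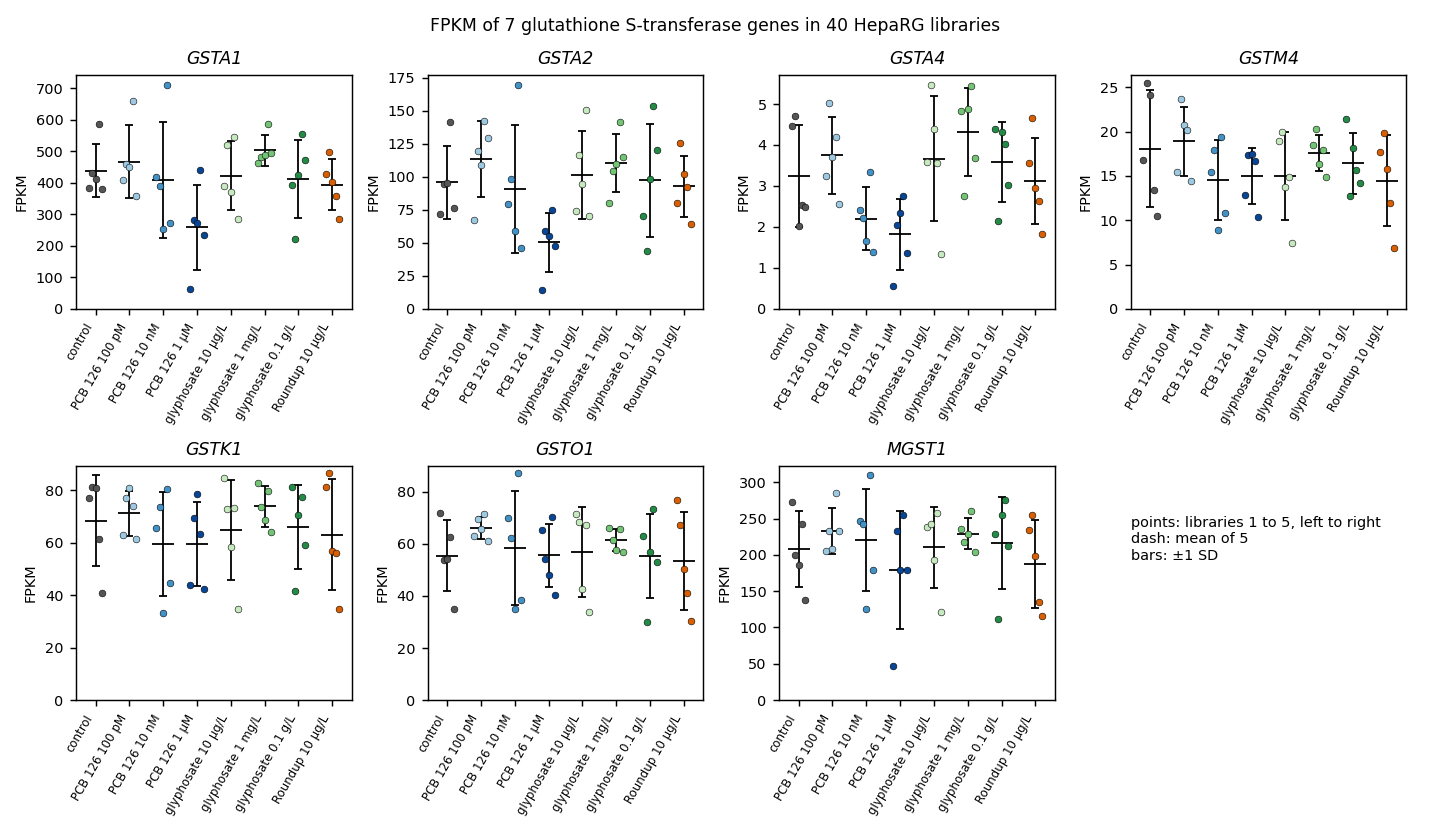
FPKM (vertical axis, from 0) of the 7 tested glutathione S-transferase genes in each library, by treatment group (horizontal axis). Points are libraries, dashes are means of 5 and bars are ±1 SD. GSTA1, GSTA2 and GSTA4 had their lowest group mean at 1 µM PCB 126 (259, 50.3 and 1.82 FPKM), with the lowest point in replicate 1.

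The alpha-class genes had their lowest levels in cells exposed to PCB 126 at 1 µM. GSTA1, the major cytosolic transferase of hepatocytes, was at 385, 430, 412, 587 and 380.0 FPKM in the 5 control libraries and at 63.9, 283, 274, 440 and 235 FPKM in the 5 libraries at 1 µM. Of the 5 exposed libraries, 4 were below the lowest control library and replicate 4 lay within the control range, so that the groups overlapped. The group means were 439 FPKM in the control group and 259 FPKM at 1 µM. The difference was −0.97 ± 0.37 (SE) on the log2(FPKM + 1) scale, with a 95% interval of −1.73 to −0.21, a fold of 0.509 on that scale. It did not pass the threshold (limma, adjusted p = 0.216, unadjusted p = 0.0141).

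GSTA2, its neighbour, was at 71.8, 94.5, 95.1, 141 and 76.4 FPKM in the control libraries and at 14.4, 58.8, 55.2, 75.1 and 47.9 FPKM at 1 µM. Again 4 of the 5 exposed libraries were below every control library, and replicate 4 was within the control range. The group means were 95.8 FPKM in the control group and 50.3 FPKM at 1 µM. The log2 difference was −1.05 ± 0.37 (95% interval −1.82 to −0.29), a fold of 0.483 on that scale, with an adjusted p of 0.178 (limma). GSTA4, which acts preferentially on the lipid peroxidation product 4-hydroxynonenal, was at 4.47, 4.71, 2.03, 2.54 and 2.48 FPKM in the control libraries and at 0.558, 2.06, 2.35, 2.75 and 1.36 FPKM at 1 µM. Only 2 of its exposed libraries were below the control range. Its log2 difference was −0.61 ± 0.27 (95% interval −1.16 to −0.06), with an adjusted p of 0.312 (limma).

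The other 4 tested genes differed less from the control at 1 µM, and their intervals all held 0. MGST1 was at 273, 199, 186, 243 and 137 FPKM in the control libraries and at 46.9, 233, 179, 255 and 180 FPKM at 1 µM, and only replicate 1 was below the control range. Its log2 difference was −0.38 ± 0.35 (95% interval −1.10 to 0.34), and without replicate 1 it was 0.05. GSTM4 was at 18.1 ± 6.61 FPKM in the control group and 14.96 ± 3.16 FPKM at 1 µM (SD, n = 5), with a log2 difference of −0.21 (95% interval −0.77 to 0.35). GSTK1, a transferase of mitochondria and peroxisomes, was at 68.3 ± 17.3 and 59.5 ± 15.9 FPKM (−0.19, 95% interval −0.75 to 0.36). GSTO1, an omega-class enzyme with thioltransferase activity, was at 55.5 ± 13.7 and 55.6 ± 12.2 FPKM (0.01, 95% interval −0.53 to 0.55).

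None of the 7 genes tested passed the adjusted threshold at 1 µM (limma), where 1.87% of the 9755 genes tested did. At an unadjusted p under 0.05 there were 3 of 7, which were GSTA1, GSTA2 and GSTA4, against 13.6% of all genes. The ordinary linear model called none of the 7. A limma fit with a block for the run of library numbers in the titles called 1 of them, GSTA2 (adjusted p = 0.0441), and 357 genes of the table. The median log2 difference of the 7 genes was −0.38, beside a median of −0.26 over all genes tested, so that the whole table was shifted in the same direction. Relative to that median, GSTA1, GSTA2 and GSTA4 still lay lower. With 75th-percentile scaling of the libraries, which moved the median of all genes to −0.12, the differences of GSTA1, GSTA2 and GSTA4 were −0.81, −0.89 and −0.52, and with quantile normalization they were −0.56, −0.85 and −0.40. All 3 scalings tried left these 3 genes below 0. In 2-sided exact permutation tests of 5 libraries against 5, where the smallest possible p is 0.00794, p was 0.0397 for GSTA1, 0.0159 for GSTA2 and 0.0952 for GSTA4. These were 3 of 56 such tests over 8 comparisons, and 2 of the 56 were under 0.05. No such test was run on genes outside the family, so that no share over all genes stands beside this. Without replicate 1 at 1 µM, the log2 difference was −0.53 for GSTA1, −0.66 for GSTA2 and −0.41 for GSTA4, and without the 8 libraries rich in unnamed transcripts it was −0.46, −0.64 and −0.34.

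Of 9 hepatocyte markers 7 were below 0 in the same comparison and 3 were called lower, and the 3 tested biliary markers were all below 0 with none called. The summed FPKM of 9 hepatocyte markers ranged from 14450 to 21060 in the control libraries and from 5668 to 14230 at 1 µM, and none of the 9 was at 0 in every library of either group. APOA2, FGB and TTR, which encode secreted plasma proteins of hepatocytes, fell by 3.20, 1.37 and 1.62 on the log2 scale (limma, adjusted p = 4.42e-05, 0.0259 and 0.00797), and the median of the 9 was −1.08. ALB had a log2 difference of −1.08 (adjusted p = 0.0564). The sum of 7 biliary and progenitor markers ranged from 224 to 452 FPKM in the control libraries and from 122 to 216 FPKM at 1 µM, with KRT19 at −0.87 (adjusted p = 0.203). The part of these marker levels, and of replicate 1, in the transferase differences was not tested. In such bulk RNA, fewer cells of a type and less RNA per cell cannot be told apart.

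In replicate 1 at 1 µM, GSTA1 stood at 14.6% of the control mean, GSTA2 at 15.1%, GSTA4 at 17.2% and MGST1 at 22.6%, while GSTM4 stood at 71.4%, GSTK1 at 64.2% and GSTO1 at 118%. ALB stood at 26.1% and KRT19 at 65.0% in that library. In replicate 4 the same ratio was 100% for GSTA1, 78.4% for GSTA2, 84.8% for GSTA4 and 123% for MGST1, with ALB at 77.8%. In replicates 2, 3 and 5, GSTA1 stood between 53.5% and 64.4% and GSTA2 at 61.4%, 57.6% and 50%. The libraries of this group thus differed among themselves more than those of any other group for GSTA1, GSTA4 and MGST1, with coefficients of variation of 51.9%, 47.8% and 45.3%.

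**Figure D2:**
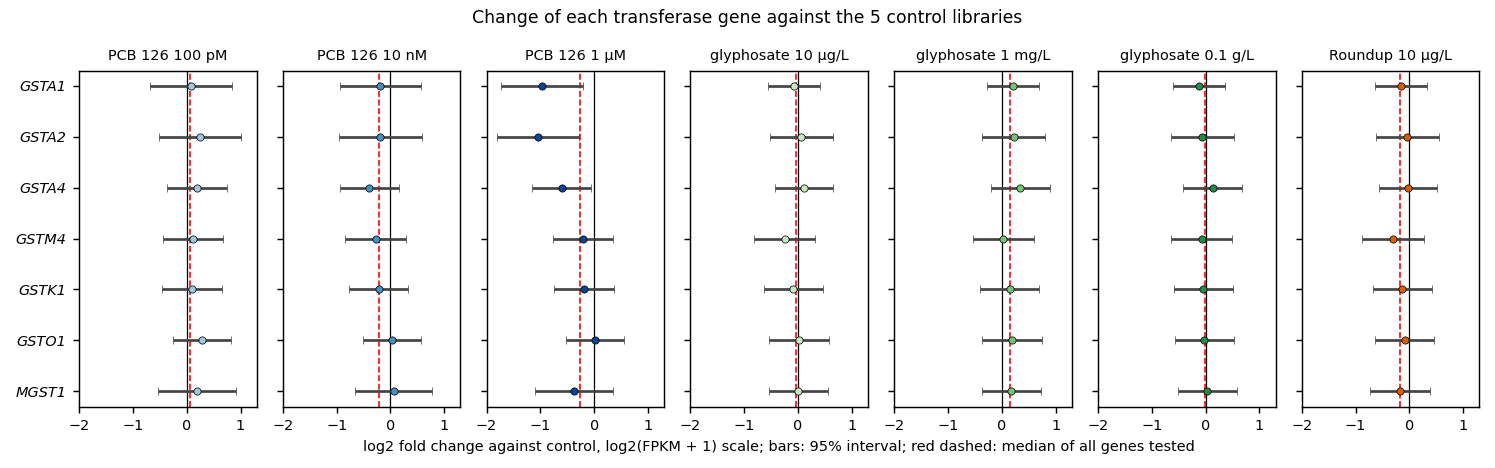
Log2 fold change against the 5 control libraries (horizontal axis, log2(FPKM + 1) scale) for the 7 tested genes (vertical axis) in 7 exposed groups, with 95% intervals from limma as bars and the median of all genes tested as a red dashed line. At 1 µM PCB 126 the intervals of GSTA1, GSTA2 and GSTA4 lay below 0, whereas in the other 6 groups every interval held 0.

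At the lower concentrations of PCB 126, no gene of the family passed the threshold. At 10 nM, 0.205% of the 9755 genes tested were called and none of the 7 transferases (limma), none of which had an unadjusted p under 0.05. GSTA1 was at 417, 391, 253, 711 and 271 FPKM and GSTA2 at 79.4, 98.6, 58.9, 170 and 46.1 FPKM, so that both the highest values of the series and values below the control range were in this group. The log2 difference from the control was −0.19 for each of these genes, with 95% intervals of −0.95 to 0.57 and −0.95 to 0.58. GSTA4 was at 2.20 ± 0.765 FPKM (−0.39, 95% interval −0.95 to 0.16). The median of the 7 was −0.19, beside −0.21 over all genes tested. The direction rested on the scaling: 5 of the 7 differences were below 0 as deposited, but 3 with quantile normalization and 1 with libraries scaled to equal sums, whereas GSTA4 was below 0 in each (−0.39 as deposited, −0.20 with quantile normalization).

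At 100 pM, 0% of all genes tested and none of the 7 transferases were called (limma), and 1.19% of all genes had an unadjusted p under 0.05. GSTA1 was at 407, 461, 449, 660.0 and 359 FPKM and GSTA2 at 67.3, 120, 109, 143 and 129 FPKM, around the control values. The log2 differences of the 7 ranged from 0.08 for GSTA1 to 0.29 for GSTO1, with a median of 0.19 beside 0.07 over all genes. With libraries scaled to equal sums 2 of the 7 were below 0. Across the 4 groups of the PCB 126 table, a moderated F-test called 1.39% of genes and none of the 7, although GSTA1, GSTA2 and GSTA4 had unadjusted p values of 0.0329, 0.0109 and 0.0269 (adjusted p = 0.445, 0.256 and 0.404).

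With the herbicides, every one of the 7 genes overlapped the control libraries and none passed the test. The share of all genes that overlapped in this way was not computed. No gene of the table, 0% of 9533, was called by limma in any of the 3 glyphosate groups, with Roundup, between Roundup and glyphosate at the same 10 µg/L, or in the F-test over the 5 groups. At an unadjusted p under 0.05 there were 95, 125, 84, 165, 121 and 130 genes in these comparisons, and none of the 7 transferases in any. Each comparison with the control shares the same 5 control libraries.

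With glyphosate at 10 µg/L, GSTA1 was at 389, 520, 372, 546 and 285 FPKM, with a log2 difference of −0.08 (95% interval −0.56 to 0.41), and the 7 genes had a median of 0.01. With glyphosate at 1 mg/L, GSTA1 was at 462, 482, 489, 586 and 494 FPKM, each above 4 of the 5 control libraries and below the highest control library, replicate 4, and the log2 difference of 0.21 had a 95% interval of −0.28 to 0.70. All 7 genes had a difference above 0 in this group, with a median of 0.18, as did the genes of the table at large, whose median was 0.14, but 2 of the 7 were below 0 with quantile normalization. With glyphosate at 0.1 g/L, GSTA1 was at 394, 221, 425, 556 and 471 FPKM (−0.13, 95% interval −0.62 to 0.36), and the median of the 7 was −0.04. The direction rested on the scaling here too: 5 of the 7 were below 0 as deposited, but all 7 were above 0 with 75th-percentile scaling (median 0.13).

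With Roundup at 10 µg/L, GSTA1 was at 428, 499, 402, 357 and 284 FPKM (−0.16, 95% interval −0.65 to 0.33) and MGST1 at 234, 255, 198, 135 and 116 FPKM (−0.17, 95% interval −0.73 to 0.38). All 7 differences were below 0 as deposited, with a median of −0.14, and the median of all genes was −0.18, but with 75th-percentile scaling 6 of the 7 lay above 0 (median 0.07). Against glyphosate at the same 10 µg/L, the 7 differences for Roundup were also all below 0, from −0.18 for MGST1 to −0.05 for GSTK1, with a median of −0.10 beside −0.14 over all genes, and 5 of the 7 lay above 0 with 75th-percentile scaling. The interval of this difference for GSTA1 was −0.57 to 0.40. GSTA4 had the largest median coefficient of variation within groups of the 7 genes (34.3%) and GSTA1 the smallest (25.2%), and the intervals show what size of change 5 libraries a group could not tell from 0.

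A direct contrast of PCB 126 at 1 µM with the mean of the 4 herbicide groups, which share no library with it, called 3 of the 7 genes in a fit of all 40 libraries, where 9.37% of 9732 genes were called (912 genes, or 414 without replicate 1 and 559 without replicate 5 at 1 µM). GSTA1 was lower at 1 µM by 0.94 on the log2 scale (SE 0.25, 259 against 433 FPKM, adjusted p = 0.0124), GSTA2 by 1.10 (SE 0.27, 50.3 against 100 FPKM, adjusted p = 0.00644) and GSTA4 by 0.75 (SE 0.21, 1.82 against 3.67 FPKM, adjusted p = 0.0151). MGST1 had a difference of −0.39 (95% interval −0.90 to 0.12), and GSTM4, GSTK1 and GSTO1 had differences of −0.06, −0.16 and −0.01. The median of all genes in this contrast was −0.23. Without replicate 1 at 1 µM none of the 3 was called (−0.49, −0.71 and −0.55, adjusted p = 0.284, 0.134 and 0.174), nor without the 8 libraries rich in unnamed transcripts (adjusted p = 0.0916, 0.0517 and 0.0608). Without replicate 5 at 1 µM, GSTA4 was no longer called (adjusted p = 0.061). With quantile normalization the 3 differences were −0.60, −0.93 and −0.54. The share of all genes called depended on the scaling. Of the 9732 genes, 3128 were called with 75th-percentile scaling, 2880 with quantile normalization and 3081 with libraries scaled to equal sums. As deposited, 24.9% of all genes had an unadjusted p under 0.05 (limma). In the same contrast ALB and KRT19 were lower as well, by 1.11 and 0.87 (limma, adjusted p = 0.000537 and 0.0128). In all, 5 of 9 hepatocyte markers (ALB, APOA2, FGB, TF and TTR) and 2 of 3 tested biliary markers (KRT19 and SPP1) were called lower. Of 7 tested regulators of transferase genes 3 were below 0 and 1 was called, CEBPA, which was lower. CTH, GPX3, ABCG2 and the 5 tested targets of the aryl hydrocarbon receptor were called higher. The part of these genes was not tested.

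The order of the group means was read for each gene. The lowest mean of GSTA1 was at 1 µM PCB 126 (259 FPKM) and the highest with glyphosate at 1 mg/L (502 FPKM), a ratio of 1.94, and for GSTA2 and GSTA4 the ratio of the highest to the lowest mean was 2.26 and 2.38. For GSTM4, GSTK1, GSTO1 and MGST1 it was 1.31, 1.24, 1.24 and 1.3. Of the 7 pairs of neighbours in the order, all 7 differed by less than the larger of their SDs for GSTA2, GSTA4, GSTM4, GSTK1 and MGST1, and 6 of 7 for GSTA1 and GSTO1.

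GSTA1 and GSTA2 varied together from library to library. Over the 40 libraries Pearson's r of log2(FPKM + 1) was 0.94, and 0.92 after each library was scaled by its 75th percentile. The points share their library, its depth and the groups. Within groups r was 0.91, and 0.87 after scaling. GSTA1 and MGST1 had an r of 0.87, and 0.79 after scaling, and GSTA1 and GSTA4 one of 0.76 and 0.65. Within groups and after scaling, r was 0.80 for GSTA1 with MGST1 but 0.46 for GSTA1 with GSTA4. GSTM4 and GSTK1 formed another pair, with an r of 0.91, and 0.71 after scaling. For GSTA1 with GSTM4, GSTK1 and GSTO1 the r of 0.46, 0.60 and 0.47 became −0.09, 0.16 and −0.03 after scaling, so that most of it went with the overall level of the library.

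**Figure D3:**
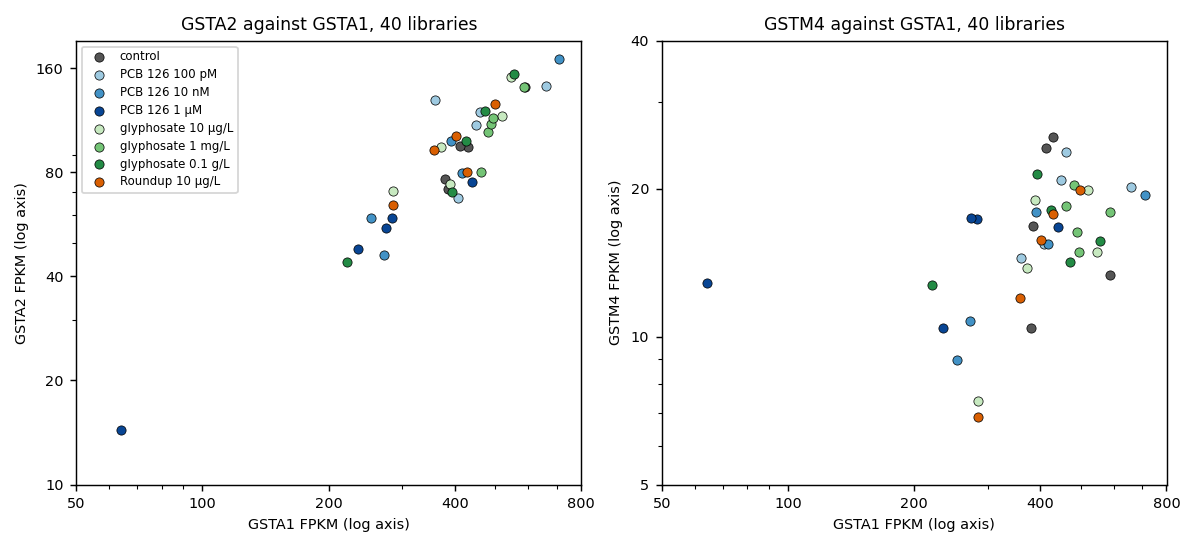
FPKM of GSTA2 (left) and of GSTM4 (right) against GSTA1 in the 40 libraries, on log axes, coloured by group. GSTA2 followed GSTA1 down to replicate 1 at 1 µM PCB 126 (63.9 and 14.4 FPKM), whereas GSTM4 at the same library was at 12.9 FPKM, inside the range of the other groups.

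The GSTA1 to GSTA2 ratio of FPKM averaged 4.67 ± 0.491 in control libraries (SD of 5) and 4.99 ± 0.527 at 1 µM PCB 126, and its group means ranged from 4.26 with glyphosate at 10 µg/L to that value. Among 6932 genes with a median of at least 5 FPKM, the 5 whose scaled pattern over the 40 libraries was most like GSTA1 were GATM (r = 0.921), APOH (0.917), GSTA2 (0.916), BCHE (0.914) and CAT (0.904). GATM encodes an enzyme of creatine synthesis, APOH and BCHE encode proteins that hepatocytes secrete, and CAT encodes catalase. The 5 most like MGST1 were IDH1 (0.928), SC5D (0.927), LAPTM4A (0.907), SAR1B (0.907) and AKR1C4 (0.906). GSTP1 was under the median of 5 FPKM, and no likeness was computed for it.

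Nearly all signal of GSTA1 came from 1 transcript, ENST00000334575 (7 exons, chromosome 6, 52791664 to 52803910, minus strand), with 99.9% of the FPKM of the gene in the control group. GSTA2 had 1 transcript in the tables, ENST00000493422 (7 exons, 52750089 to 52763569). The assembled locus held 14 transcripts, of which 3 carried no name, and 5 named genes. The most abundant unnamed transcript ran from 52739531 to 52803978, across both genes, with 7 exons and 951 bases. It was at 58.6 ± 41.1 FPKM in the control group and 48.7 ± 33.8 FPKM at 1 µM, and its group means ranged from 29.6 FPKM with PCB 126 at 10 nM to 88.0 FPKM at 100 pM. Because the paralogs are near-identical, the division of reads among GSTA1, GSTA2 and this transcript is uncertain. With the FPKM of the unnamed transcript added to each gene in turn, the log2 difference of GSTA1 at 1 µM was −0.75 in place of −0.97, and that of GSTA2 was −0.58 in place of −1.05. In the contrast with the herbicide groups, GSTA2 was then no longer called (−0.70, adjusted p = 0.096).

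**Figure D4:**
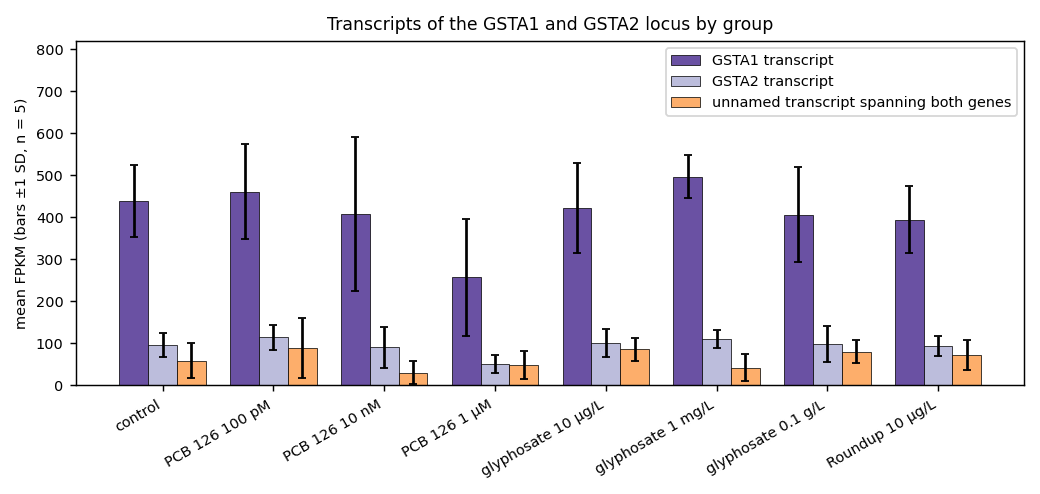
Mean FPKM (vertical axis, from 0, bars ±1 SD, n = 5) of the GSTA1 transcript, the GSTA2 transcript and the unnamed transcript that spans both genes, by group (horizontal axis). The named transcripts had their lowest means at 1 µM PCB 126 (256.5 and 50.3 FPKM), while the unnamed transcript had its lowest mean at 10 nM (29.6 FPKM).

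The other genes divided their signal among several transcripts. GSTA4 (chromosome 6, 52977948 to 52995378) had 2 transcripts with at least 10% of its FPKM in the control group. ENST00000370963, with 7 exons, was at 2.21 ± 1.59 FPKM in the control group, 0.476 ± 0.934 FPKM at 10 nM PCB 126 and 0.892 ± 1.17 FPKM at 1 µM. ENST00000486559, with 5 exons, was at 1.03 ± 0.869, 1.71 ± 1.14 and 0.923 ± 0.759 FPKM. At this level the transcript shares of a gene rest on few fragments, and no test was run on them. GSTO1 (chromosome 10, 104235356 to 104267459) had ENST00000369713 at 29.8 ± 8.51 FPKM and the shorter ENST00000445155 at 20.4 ± 6.67 FPKM in the control group. At 1 µM PCB 126 they were at 41.5 ± 13.3 and 10.99 ± 11.2 FPKM, and with Roundup at 39.8 ± 7.62 and 9.38 ± 10.99 FPKM. The SD of the shorter transcript was thus larger than its mean in both groups, and the difference was not tested. The sum for GSTO1 was near the control in both groups. GSTM4 (chromosome 1, 109656081 to 109674836) and GSTM2 (chromosome 1, 109668022 to 109709551) overlapped in the tables and belonged to the same assembled locus, so that their reads may also have been divided. For GSTK1 (chromosome 7, 143244093 to 143270854) and MGST1 (chromosome 12, 16347142 to 16609259), the leading transcript held 75.9% and 85.0% of the FPKM of the gene in the control group. For GSTK1 this varied between groups, and its leading transcript ENST00000358406 was at 51.8 ± 16.8 FPKM in the control group, 34.9 FPKM at 100 pM PCB 126 and 32.7 FPKM with glyphosate at 10 µg/L, while the gene was at 68.3, 71.2 and 64.7 FPKM.

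The rest of the glutathione pathway was read from lists of genes. Of 15 other glutathione transferases 4 were tested, and none was called at 1 µM PCB 126, where their median log2 difference was −0.25. Of 16 genes of glutathione synthesis and recycling, 14 were tested and 1 rose, CTH, which encodes the enzyme that makes cysteine from cystathionine. CTH was at 3.30 ± 0.773 FPKM in the control group and 11.6 ± 4.47 FPKM at 1 µM (log2 difference 1.48, adjusted p = 0.00665, limma). The median of these 14 genes was 0.08. Over all genes, 63 of 9755 were called higher at 1 µM (1.87% called in either direction) and 14 at 10 nM (0.205% in either direction).

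Of 6 glutathione peroxidases 5 were tested and 1 rose, GPX3, the secreted form, which went from 90.6 ± 19.8 to 226 ± 54.1 FPKM (1.31, adjusted p = 0.0113). Of 17 genes of the mercapturate route and of conjugate export 11 were tested and 1 rose, ABCG2, an efflux transporter of the apical membrane, from 0.484 ± 0.362 to 4.45 ± 2.16 FPKM (1.81, adjusted p = 0.00131). Of 7 targets of the aryl hydrocarbon receptor 6 were tested and 5 rose (CYP1A1, CYP1A2, CYP1B1, TIPARP and ALDH3A1). Of 10 regulators of transferase genes 7 were tested and none was called against the control. None of the genes in these lists was called lower at 1 µM, where 119 of all 9755 genes were. Of the mercapturate route 8 of the 11 genes, and all 4 other transferases, had differences below 0. Their medians of −0.17 and −0.25 were no lower than the −0.26 over all genes tested. At 10 nM PCB 126 the only calls in these lists were receptor targets, 5 of 6, and with the herbicides none was called.

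**Figure D5:**
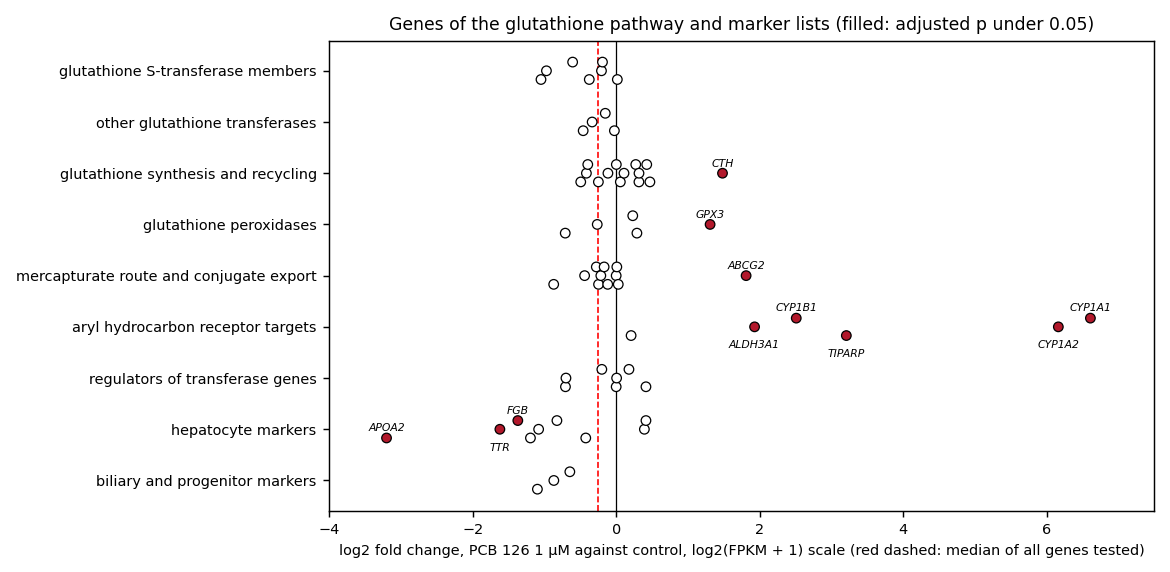
Log2 fold change at 1 µM PCB 126 against control (horizontal axis, log2(FPKM + 1) scale) for each tested gene of 9 lists (vertical axis). Filled points passed the adjusted threshold in limma, and the red dashed line is the median of all genes tested. GSTA1, GSTA2 and GSTA4 are the 3 leftmost points of the top list (−1.05 to −0.61) and are not filled, while CTH, GPX3 and ABCG2 lie to the right (1.31 to 1.81).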

How the data were processed

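Directional, ribosome-depleted libraries of HepaRG RNA were aligned and quantified by the authors with HISAT2 and StringTie on GRCh38 (submitters' processing notes; versions not given in the sources used here), and the deposited values are FPKM per transcript. Columns with a few values below 0 were listed as a score among the deposited columns, and 4 and 6 such values in the PCB 126 and glyphosate tables were set to 0. FPKM were summed per gene name. The control columns held the same values in both tables.

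Genes with a variance of FPKM above 1 were fitted on log2(FPKM + 1) with limma 3.58.1 (R 4.3.3), 20 libraries for PCB 126 and 25 for the herbicides, and 40 for the direct contrast, with Benjamini-Hochberg adjustment over all genes tested and a threshold of 0.05. Fold changes understate low genes. Single values were compared by 2-sided exact permutation. All 10 members were named. Genes of the lists were named where they passed the threshold or served as a check. Genes outside the lists were named where they were among the 5 most like GSTA1 or MGST1. EPCAM, KRT7, CFTR and RN7SL1 were chosen after their values were seen. Genes, lists and tests were chosen with earlier results of these data known. The fit was tested on simulated data. The labels give no replicate numbers, and libraries were numbered by runs of library numbers in the titles. Alternatives were another pseudocount, other filters and scalings, array weights, ordinary least squares with a term for library size, a replicate block, the most abundant transcript, fits of 2 groups and of 40 libraries, and leaving out each library. Chosen after seeing the data were the fit without the 8 libraries and the addition of the unnamed transcript. Figures used matplotlib 3.10.9.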

Additional observations from a re-analysis of the deposited data

Results flagged for a closer look

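In the group of 5 control libraries, GSTA1 in replicate 4 was at 587.1 FPKM, far above the next library at 429.6 FPKM. With glyphosate at 1 mg/L, GSTA1 in replicate 4 was at 586.1 FPKM, where the next library was at 494.4 FPKM. These were 2 of 56 groups of libraries examined over 7 genes, and about 1 in 20 such groups stands out by chance. GSTA1 was highest in replicate 4 in 7 of the 8 groups.

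The difference between PCB 126 at 1 µM and the mean of the herbicide groups passed the threshold for GSTA1 (−0.935 on the log2 scale), GSTA2 (−1.096) and GSTA4 (−0.747), in limma over 40 libraries. Without replicate 1 at 1 µM none of the 3 passed (adjusted p = 0.284, 0.134 and 0.174), and GSTA4 did not pass without replicate 5 either.

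At the GSTA locus, 2 further unnamed transcripts, which the gene sums leave out, stood out in 1 group each. One was at 0 in all libraries other than replicates 1 and 4 of glyphosate at 0.1 g/L (43.9 and 44.6 FPKM, group mean 17.71 FPKM). The other had a mean of 40.02 FPKM at 100 pM PCB 126, where the highest control library was at 31.47 FPKM, but 2 of the 5 libraries (14.55 and 30.74 FPKM) were below that library, and single libraries of 3 herbicide groups were above it (33.47, 34.45 and 53.9 FPKM). Neither was tested.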

How the results depend on the processing

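For the 7 genes and 9 contrasts, 2482 of 2494 alternative values kept their side of the threshold, 8 lost a call, 4 gained one and no call reversed. Differences that were not called could change sign, as MGST1 at 1 µM did (−0.56 to 0.05 when each library was left out). The number of the 7 genes called went from 0 to 1 at 1 µM PCB 126 with the replicate block (GSTA2, adjusted p = 0.0441), and from 0 to 1 in the F-test of the PCB 126 groups with the replicate block and with array weights. In the contrast with the herbicide groups it went from 3 to 0 without the 8 libraries rich in unnamed transcripts, and ranged from 0 to 3 when each library was left out. With array weights it went from 0 to 1 for Roundup against control, to 2 for Roundup against glyphosate and to 3 in the F-test of the herbicide groups, where the estimation of the weights did not converge, the weight of 1 library reached 30.4, and 3470, 4448 and 5527 of 9533 genes were called. The cause of the other changes was not tested. Leaving out each library gave 0 calls of the 7 in every other comparison.

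Libraries were numbered by runs of library numbers in their titles. Deviations from the group means correlated between −0.166 and 0.365 within a run (median 0.05), over 0.1 in 40 of 140 pairs. Across runs they correlated between −0.272 and 0.212 (median −0.02), over 0.1 in 26 of 560 pairs. Libraries of a run were thus somewhat more alike than those of other runs, with a wide overlap. The labels do not say that a run pairs libraries, and the block is an alternative only. The block raised the genes called from 182 to 357 at 1 µM and from 20 to 37 at 10 nM. When each library was left out, the genes called at 1 µM ranged from 118 (without control replicate 4) to 365 (without control replicate 5), and those in the contrast with the herbicide groups from 414 (without replicate 1 at 1 µM) to 1295. At 10 nM the range was 15 to 35, with 35 and 32 without replicates 3 and 4 at 10 nM. At 1 µM, 592 genes were called with 75th-percentile scaling, 1125 with quantile normalization, 838 with libraries scaled to equal sums and 946 with array weights, and 526 without the 8 libraries. The genes called lower were 119 of 182 as deposited, 345 of 592 with 75th-percentile scaling and 615 of 1125 with quantile normalization, and in the contrast with the herbicide groups 745 of 912 as deposited and 1732 of 2880 with quantile normalization. The cause was not tested. GSTA1 at 1 µM ranged from −1.03 to −0.46 over 15 alternatives other than left-out libraries (adjusted p from 0.0882 to 0.463), and from −1.22 to −0.53 over left-out libraries. GSTA4 at a pseudocount of 0.1 was −0.89. FPKM without counts give no counting error.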
